A study of Mus musculus with 16 samples.

Results

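Alveolar type I (AT1) cell markers are genes read at high levels in the flat cells that cover most of the gas exchange surface of the lung. Expression of 10 of them (Ager, Hopx, Pdpn, Aqp5, Rtkn2, Cav1, Clic5, Akap5, Emp2 and Igfbp2) was followed in RNA labelled as coming from alveolar epithelial type II (AT2) cells. The genes were picked by symbol among 20725 measured mouse genes, and 15 array features carried their names. For each gene the feature with the highest mean over the 16 arrays was used, and 5 genes had another feature that is given beside it. All pups were sampled at postnatal day 3 (P3). Wild-type and Fgf10+/- pups, the latter carrying a single working copy of the gene for fibroblast growth factor 10, which lung mesenchyme secretes, spent P0 to P3 either in normoxia or in 85% oxygen (hyperoxia). By their titles, 4 samples were wild type in normoxia, 4 were Fgf10+/- in normoxia, 6 were wild type in hyperoxia and 2 were Fgf10+/- in hyperoxia. The series text gives 4 samples in every group, and the titles were followed here. Values that use either hyperoxia group would change under another assignment of samples, which was not tested. How the AT2 cells were isolated, and whether each sample came from its own pup, is not stated, so p-values measure only the spread between these samples.

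AT1 and AT2 cells arise from shared progenitors before birth. After birth AT2 cells, the cuboidal cells that make surfactant, can flatten and turn into AT1 cells, and many injuries of the alveolus set off that change. NKX2-1 and the YAP and TAZ coactivators with their TEAD partners are known regulators of AT1 fate. Some marker genes are also transcribed in AT2 cells or in other cells of the lung, Cav1 in endothelium above all. In RNA from many cells, fewer cells of a type and less RNA per cell cannot be told apart.

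Promoters of 9 of the 10 markers were found in the RefSeq table of the mouse GRCm38.p6 assembly, with 12 start sites among them. Each holds 250 bases before and 50 bases after the annotated start. Aqp5, Clic5 and Emp2 are shown because their levels ran together from array to array, and Cav1 because it did not follow them. Capitals mark the GC box GGGCGG, the letters read by SP1 family factors, on either strand.
Aqp5, chr15:99590778-99591077, plus strand: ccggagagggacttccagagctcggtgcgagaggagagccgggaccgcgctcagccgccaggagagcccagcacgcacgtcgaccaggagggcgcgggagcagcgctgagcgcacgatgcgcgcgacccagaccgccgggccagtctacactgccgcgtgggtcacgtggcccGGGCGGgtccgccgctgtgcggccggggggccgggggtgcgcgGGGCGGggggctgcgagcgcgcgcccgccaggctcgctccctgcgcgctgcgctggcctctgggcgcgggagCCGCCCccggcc
Clic5, chr17:44188322-44188621, plus strand: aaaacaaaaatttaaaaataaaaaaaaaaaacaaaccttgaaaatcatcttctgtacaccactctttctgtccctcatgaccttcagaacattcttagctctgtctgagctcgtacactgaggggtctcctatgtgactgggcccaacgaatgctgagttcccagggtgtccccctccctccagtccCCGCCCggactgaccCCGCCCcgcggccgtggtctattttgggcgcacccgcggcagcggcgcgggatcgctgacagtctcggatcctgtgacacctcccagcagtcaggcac
Emp2, chr16:10313919-10314218, minus strand: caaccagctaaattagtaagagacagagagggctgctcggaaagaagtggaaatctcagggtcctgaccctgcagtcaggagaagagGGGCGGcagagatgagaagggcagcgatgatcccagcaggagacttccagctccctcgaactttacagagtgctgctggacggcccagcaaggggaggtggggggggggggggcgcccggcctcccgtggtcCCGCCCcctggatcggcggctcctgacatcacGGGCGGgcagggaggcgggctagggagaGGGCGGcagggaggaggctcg
Cav1, chr6:17306085-17306384, plus strand: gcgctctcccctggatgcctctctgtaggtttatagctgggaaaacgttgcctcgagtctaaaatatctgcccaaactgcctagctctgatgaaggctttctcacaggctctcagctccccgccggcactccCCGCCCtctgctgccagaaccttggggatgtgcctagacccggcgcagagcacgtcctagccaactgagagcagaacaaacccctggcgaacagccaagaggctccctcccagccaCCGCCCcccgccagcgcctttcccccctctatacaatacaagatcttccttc
All 4 promoters hold GC boxes, as do 7 of the 12 promoters found, against 35.7% of the 32851 promoters in the table. The TEAD letters GGAATG, searched on both strands, were in 0 of the 12, and 14.7% of all promoters hold them. The NKX2-1 letters CAAGTG were found in 1 of the 12, a Hopx start, against 13.6% of all promoters. These windows are short, and a match or its absence says nothing of binding.

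All 16 arrays carried strong AT2 signal. On all 16 the surfactant gene Sftpc came within 0.05 of that array's maximum, and the mean of 12 AT2 genes ran from 10.74 to 12.11 log2 units. Over all features and arrays the median was 4.34, and AT1 marker features averaged from 6.06 (the second Pdpn feature) to 12.46 (Emp2) over the 16 arrays. Genes of other cells were bright on every array too. The mean of 7 club and basal genes ran from 10.19 to 12.11, and that of 4 erythroid genes from 9.68 to 13.36. Some arrays also stood apart in genes of other cells. The mean of 10 thymocyte genes was 6.43 in wild-type normoxia replicate 4 and 6.38, 5.74 and 5.54 in Fgf10+/- normoxia replicates 2, 1 and 4, against 4.01 to 4.75 on the other 12 arrays. Of these 10 genes, 9 averaged under 6, so outside the named arrays their mean lay near the median of all values. The mean of 9 fibroblast genes was 11.28 and that of 8 smooth muscle and pericyte genes 9.27 in wild-type normoxia replicate 1, against 8.54 to 10.56 and 6.25 to 8.63 elsewhere.

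Transcripts for membrane proteins of the AT1 surface spread widely within groups, and for Ager and Pdpn the groups overlapped in every comparison. Ager encodes the receptor for advanced glycation end products, which AT1 cells hold at their basal membrane. Ager stood at 10.90, 11.75, 12.04 and 11.14 log2 units in wild-type normoxia replicates 1 to 4 and at 11.40, 11.12, 12.54 and 11.75 in Fgf10+/- normoxia. In hyperoxia the 6 wild-type arrays ran from 10.82 to 11.41 with a median of 11.27, and the 2 Fgf10+/- arrays stood at 12.43 and 11.24. Replicate 3 was the highest array of both normoxia groups, and the wild-type hyperoxia arrays lay within the range of every other group or below it. Pdpn encodes podoplanin, a mucin-like glycoprotein of the apical membrane. Its values were 10.31, 11.20, 11.78 and 10.52 in wild-type normoxia and 11.91, 11.22, 12.20 and 11.79 in Fgf10+/- normoxia. In hyperoxia Pdpn ran from 10.32 to 11.08 with a median of 10.75 in wild type and stood at 11.82 and 10.82 in Fgf10+/-. Pdpn in 3 of the 4 Fgf10+/- normoxia arrays lay above all 10 wild-type arrays, and the fourth lay between the higher pair of wild-type normoxia arrays.

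Aqp5 encodes the water channel of the apical membrane. Its levels were 11.14, 12.21, 12.69 and 11.49 in wild-type normoxia and 12.37, 11.42, 12.95 and 12.20 in Fgf10+/- normoxia. In hyperoxia Aqp5 ran from 11.61 to 12.06 with a median of 11.75 in wild type, and stood at 13.00 and 11.79 in Fgf10+/-. The wild-type hyperoxia arrays again fell in a narrow band inside the normoxia range. Clic5 encodes a chloride intracellular channel protein tied to the actin cortex. In wild-type normoxia replicates 2 to 4 stood at 11.09, 11.66 and 10.47 and replicate 1 lay 0.81 below the group mean, and Fgf10+/- normoxia stood at 11.08, 10.61, 11.74 and 11.10. In hyperoxia Clic5 ran from 10.71 to 11.10 with a median of 10.87 in wild type, and stood at 11.96 and 11.13 in Fgf10+/-, so that both Fgf10+/- arrays lay above all 6 wild-type arrays. Emp2, an epithelial membrane protein that affects integrins and caveolins at the cell surface, ran from 11.98 to 13.07 in wild-type normoxia and from 12.30 to 13.38 in Fgf10+/- normoxia. In hyperoxia its range was 11.82 to 12.47 in wild type, and the Fgf10+/- arrays stood at 13.37 and 12.16. After group means were taken off, Emp2 followed Aqp5 over the 16 arrays with Pearson's r = 0.96.

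Cav1 encodes caveolin 1, the coat protein of caveolae. It stood at 7.26, 7.35, 7.37 and 6.49 in wild-type normoxia and at 8.59, 7.59, 7.18 and 7.27 in Fgf10+/- normoxia. In hyperoxia Cav1 ran from 6.32 to 8.01 with a median of 7.36 in wild type, and stood at 7.71 and 7.49 in Fgf10+/-. Its highest array overall was Fgf10+/- normoxia replicate 1. The first Hopx feature (12.58) and the second Emp2 feature (12.39) peaked on that array too, and Rtkn2 was the highest of its group there (6.70). The first features of Ager, Pdpn, Aqp5, Clic5 and Emp2 did not peak there.

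Markers that act inside the cell mostly spread widely within groups too, and not all of their groups overlapped. Hopx encodes an atypical homeodomain protein that does not bind DNA itself. Hopx stood at 10.59, 11.13, 12.20 and 10.66 in wild-type normoxia and at 12.58, 11.05, 12.03 and 11.24 in Fgf10+/- normoxia. In hyperoxia it ran from 11.12 to 11.64 with a median of 11.30 in wild type, and stood at 12.57 and 11.69 in Fgf10+/-. Both Fgf10+/- hyperoxia arrays lay above all 6 wild-type hyperoxia arrays, while the normoxia groups overlapped. In the second Hopx feature the hyperoxia groups overlapped too, with Fgf10+/- at 11.71 and 10.70 and wild type up to 10.75. Rtkn2 stood at 5.74, 6.39, 6.39 and 5.95 in wild-type normoxia and at 6.70, 6.41, 6.47 and 6.45 in Fgf10+/- normoxia, so these groups did not overlap. In hyperoxia it ran from 5.98 to 6.56 with a median of 6.42 in wild type, and stood at 7.32 and 6.03 in Fgf10+/-, the highest and the second lowest of the 8 arrays. Akap5, which anchors protein kinase A, ran from 10.11 to 11.40 in wild-type normoxia, 10.62 to 11.80 in Fgf10+/- normoxia and 10.23 to 10.94 in wild-type hyperoxia, and stood at 11.80 and 10.28 in Fgf10+/- hyperoxia.

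Igfbp2 encodes a secreted protein that binds insulin-like growth factors and marks mature AT1 cells. It stood at 8.01, 8.88, 8.82 and 8.04 in wild-type normoxia and at 8.34, 8.58, 9.64 and 9.38 in Fgf10+/- normoxia. In hyperoxia Igfbp2 ran from 6.93 to 8.90 with a median of 8.35 in wild type, and stood at 8.88 and 8.14 in Fgf10+/-. Wild-type hyperoxia replicate 1 was the lowest of all 16 arrays.

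**Figure D1:**
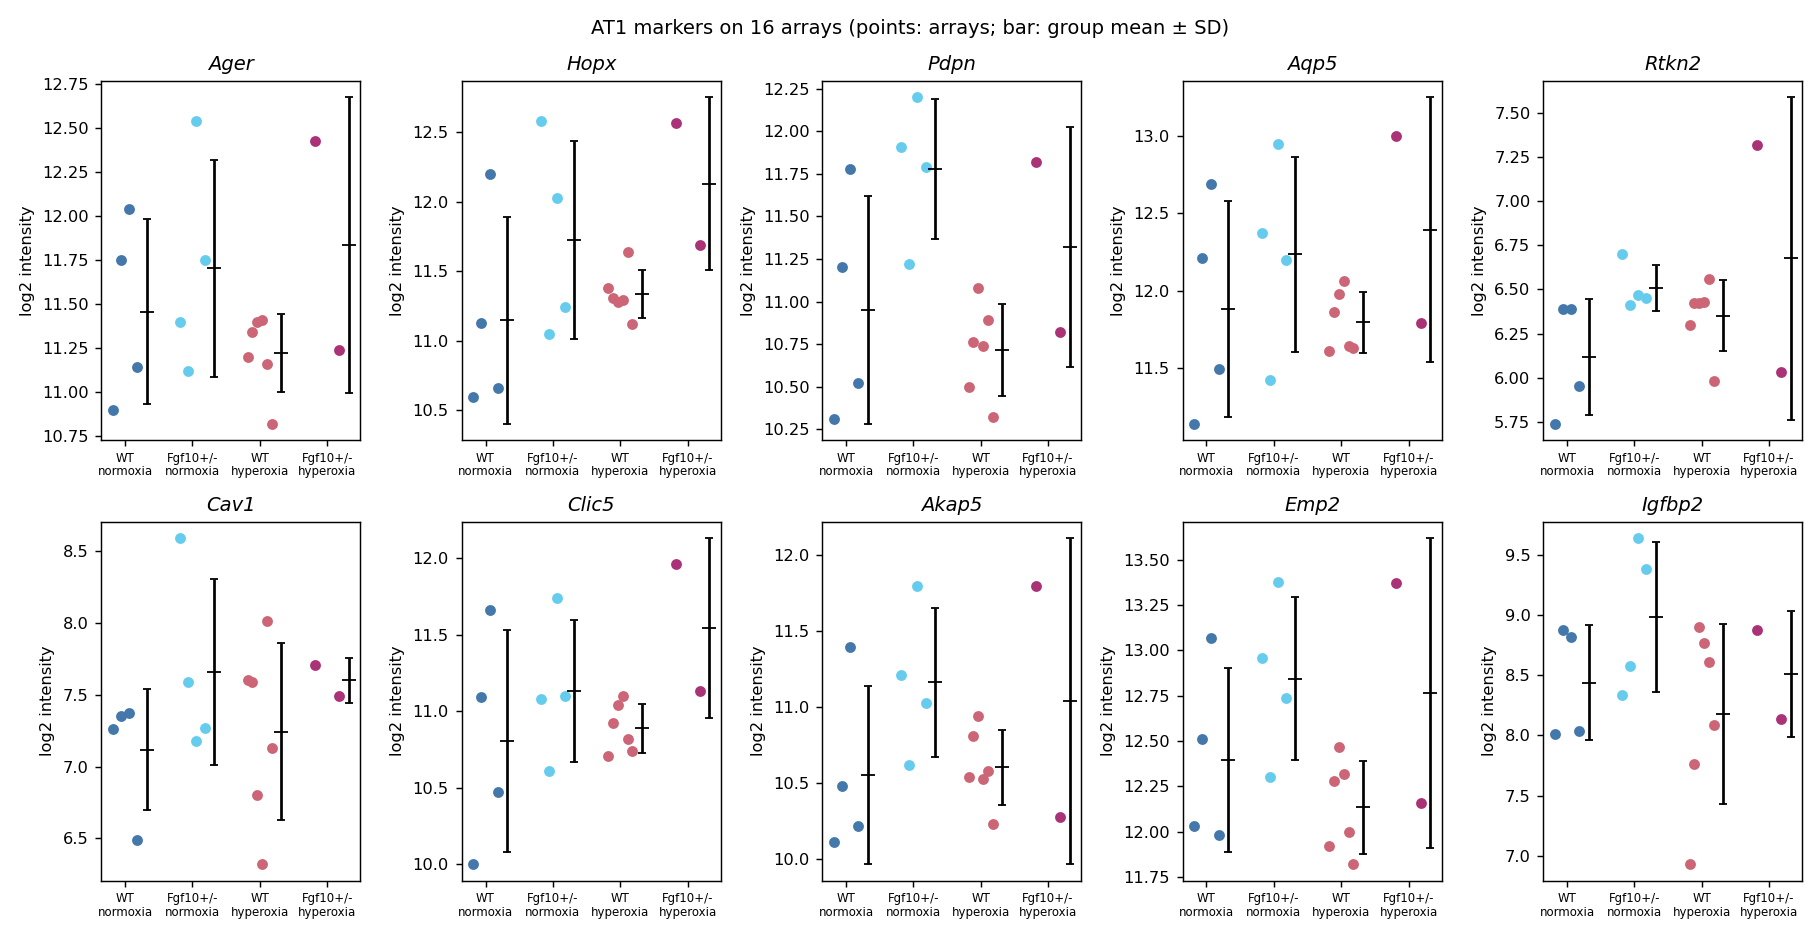
Log2 intensity of each of the 10 AT1 markers (vertical axis, 1 panel per gene with its own scale) in the 4 groups (horizontal axis). Points are arrays and black bars are group means with SD (n = 4, 4, 6 and 2); for Clic5 the 2 Fgf10+/- hyperoxia arrays, at 11.96 and 11.13, sit above the 6 wild-type hyperoxia arrays at 10.71 to 11.10.

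Within groups the wild-type hyperoxia arrays were the most alike in these genes. The median SD over the 10 markers was 0.23 among the 6 wild-type hyperoxia arrays and 0.56 among the 4 wild-type normoxia arrays, and the SD was the lower in hyperoxia for 8 of 10 markers. Over all genes with a mean over 6 the corresponding medians were 0.27 and 0.30, and 56.1% of those genes had the lower SD in hyperoxia. The exceptions were Cav1, with an SD of 0.62 in wild-type hyperoxia against 0.42 in wild-type normoxia, and Igfbp2, with 0.75 against 0.48.

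Hyperoxia left no AT1 marker past the test in wild-type pups. The question was whether oxygen changes AT1 gene levels in the AT2 fraction. Differences are hyperoxia minus normoxia in log2 units, fitted with limma and adjusted by Benjamini-Hochberg over 20725 genes, and a gene is called at an adjusted p under 0.05. In wild type, 0 of 10 markers were called, against 3.13% of all genes, and 0 of 10 had an unadjusted p under 0.05, against 18.2%. The 2 groups overlapped for all 10 markers, while 7.16% of all genes had groups that did not. The differences were positive for 5 markers and negative for 5, from -0.26 (Igfbp2) to 0.24 (Rtkn2), with a median of -0.02 against -0.08 over all genes. That balance rested on single normoxia arrays: the median was -0.26 with 3 of 10 positive without replicate 1, 0.19 with 7 positive without replicate 3 and -0.15 with 2 positive without replicate 4. With the mean of the thymocyte genes as a covariate it was -0.39, with 2 of 10 positive and 2 at an unadjusted p under 0.05. That mean ran only from 4.01 to 4.42 on the hyperoxia arrays, and the 4 arrays highest in it were all in normoxia. This fit therefore cannot fully separate the thymocyte genes from oxygen. Ager was at 11.46 ± 0.53 (SD, n = 4) in normoxia and 11.22 ± 0.22 (n = 6) in hyperoxia, a difference of -0.23 (95% interval -0.87 to 0.40, limma adjusted p = 0.740). Pdpn differed by -0.23 (-0.85 to 0.38), Aqp5 by -0.09 (-0.78 to 0.60), Hopx by 0.19 (-0.51 to 0.89) and Cav1 by 0.12 (-0.58 to 0.82). The intervals of all 10 markers included 0 and reached from -1.05 to 0.89, so differences of up to those sizes were within the error. The number of arrays limits this precision.

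In Fgf10+/- pups 0 of 10 markers were called after hyperoxia, against 2.45% of all genes (507, falling to 90 without hyperoxia replicate 1 and 108 without replicate 2), and 0 of 10 had an unadjusted p under 0.05, against 16.7%. The groups overlapped for all 10, while they did not for 25.9% of all genes. Differences ran from -0.47 (Igfbp2) to 0.42 (Clic5), 5 positive and 5 negative, with a median of 0.04 against -0.04 over all genes. Hopx was at 11.72 ± 0.71 (SD, n = 4) in normoxia and 12.13 ± 0.62 (n = 2) in hyperoxia, a difference of 0.41 (-0.53 to 1.35, limma adjusted p = 0.703). Pdpn differed by -0.46 (-1.28 to 0.37, limma adjusted p = 0.610). The 2 hyperoxia arrays did not give the same picture: replicate 1 lay above replicate 2 for 10 of 10 markers. Leaving out either keeps a single Fgf10+/- hyperoxia array, assumed to vary like the other groups. Without replicate 1 the median difference was -0.47 with 1 of 10 positive, and without replicate 2 it was 0.69 with 9 of 10 positive. Replicate 2 had the higher mean of 11 endothelial genes, 9.15 against 7.77, and the lower mean of 12 AT2 genes, 10.74 against 11.99. Their part in the marker values was not tested.

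Whether hyperoxia acted differently in the genotypes was tested by the interaction. It called 0 of 10 markers, against 0.00965% of all genes, with estimates from -0.22 (Pdpn) to 0.37 (Ager) and 95% intervals that reached from -1.54 to 1.43. The limma adjusted p was 0.9999 for each marker, and 0 of 10 markers against 4.11% of all genes had an unadjusted p under 0.05. The signs followed the Fgf10+/- hyperoxia arrays: 10 of 10 estimates were negative without replicate 1 (median -0.39) and 9 of 10 were positive without replicate 2 (median 0.62).

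**Figure D2:**
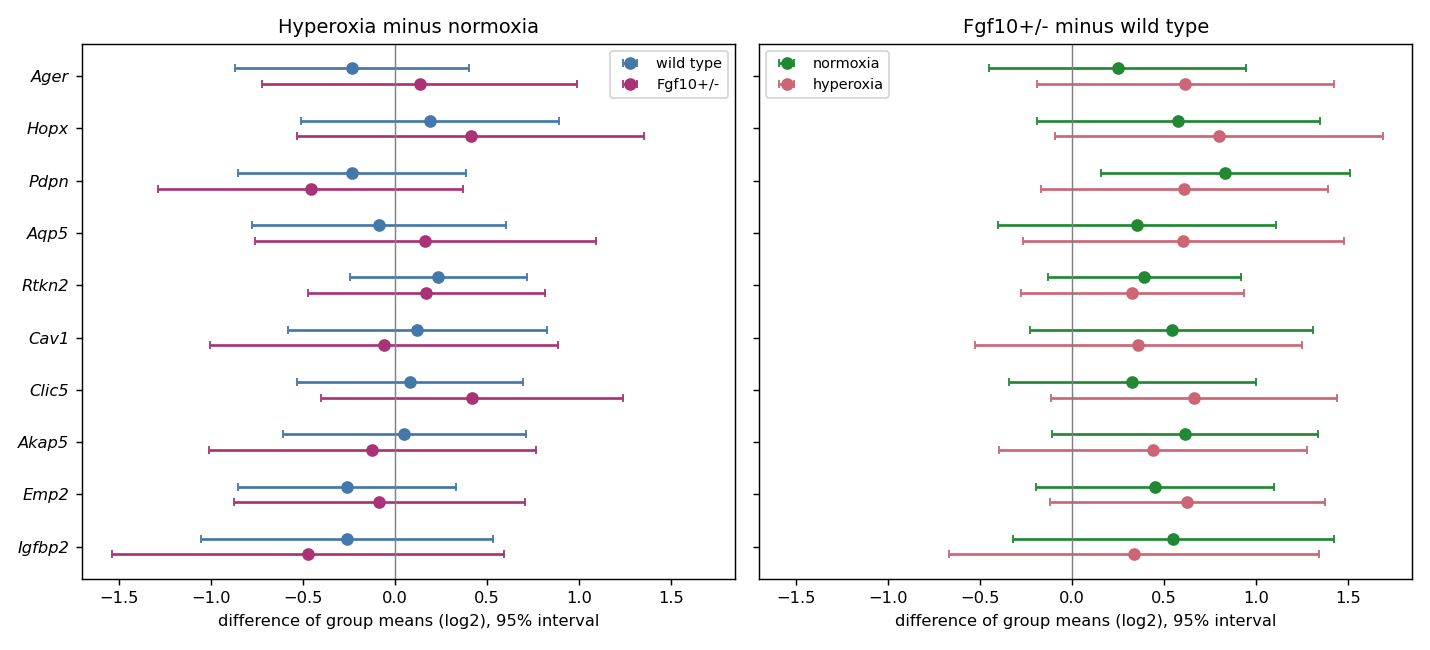
Differences of group means in log2 units (horizontal axes) for the 10 AT1 markers (vertical axis), with 95% intervals from the limma fit. Left, hyperoxia minus normoxia in wild type and Fgf10+/-; right, Fgf10+/- minus wild type in normoxia and hyperoxia; all 20 genotype differences are positive, and only that of Pdpn in normoxia (0.83) has an interval that leaves out 0.

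All 10 AT1 markers had a higher mean in Fgf10+/- than in wild type, in normoxia and again in hyperoxia, yet none passed the test. These comparisons share no sample. The differences in normoxia ran from 0.25 (Ager) to 0.83 (Pdpn) with a median of 0.50, against -0.01 over all genes. In hyperoxia they ran from 0.33 (Rtkn2) to 0.80 (Hopx) with a median of 0.61, against 0.02. Of all genes, 26.8% were positive in both comparisons. The markers vary together between arrays, as the correlations between arrays show, so the 10 signs are not 10 separate observations, and no p is given for them.

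In normoxia 0 of 10 markers were called, against 0.00965% of all genes. Pdpn was at 11.78 ± 0.41 (SD, n = 4) in Fgf10+/- and 10.95 ± 0.67 (n = 4) in wild type, a difference of 0.83 with SE 0.32 (95% interval 0.16 to 1.51, unadjusted p = 0.0189 and adjusted p = 0.724 in limma's test). It was the 1 marker of 10 with an unadjusted p under 0.05, against 6.03% of all genes. That count depended on single normoxia arrays. It was 0 without wild-type replicate 1, wild-type replicate 4 or Fgf10+/- replicate 3. Without wild-type replicate 3 it was 4, and without Fgf10+/- replicate 2 it was 3. Akap5 differed by 0.61 (-0.11 to 1.34), Hopx by 0.58 (-0.19 to 1.35), Igfbp2 by 0.55 (-0.32 to 1.42), Cav1 by 0.54 (-0.23 to 1.31) and Emp2 by 0.45 (-0.20 to 1.10). Rtkn2, at 6.51 ± 0.13 (n = 4) against 6.12 ± 0.32 (n = 4), was the 1 marker of 10 whose groups did not overlap, against 3.46% of all genes. The mean of the thymocyte genes ran higher on 3 of the 4 Fgf10+/- arrays, as given above. Endothelial genes were the lower in Fgf10+/- for 11 of 11, with a median of -0.81. Smooth muscle and pericyte genes were the lower for 7 of 8 (median -0.88), with wild-type replicate 1 high in them as given above. Macrophage and neutrophil genes were the lower for 4 of 6 (median -0.89). Medians were -0.05 for fibroblast, 0.21 for lymphatic and mesothelial and 0.48 for erythroid genes. In these lists 0 genes were called, and their part in the marker values was not tested. With the mean of the thymocyte genes as a covariate the median marker difference was 0.59, with 10 of 10 positive. Most of these genes are dim, and the covariate mainly sets the arrays named above apart. This fit may therefore not correct fully for thymocyte RNA. Leaving out the 4 arrays highest in these genes kept a single Fgf10+/- normoxia array, replicate 3, and is no check of this comparison. Without Fgf10+/- normoxia replicate 3 the median was 0.37, with 9 of 10 positive.

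In hyperoxia 0 of 10 markers were called between genotypes, against 0% of all genes, and the limma adjusted p was 0.9996 for each. An unadjusted p under 0.05 was met by 0 of 10 markers, against 4.37% of all genes. Hopx was at 12.13 ± 0.62 (n = 2) in Fgf10+/- and 11.34 ± 0.17 (n = 6) in wild type, a difference of 0.80 (-0.09 to 1.69). Clic5 differed by 0.66 (-0.11 to 1.44), Emp2 by 0.62 (-0.12 to 1.37), Ager by 0.62 (-0.19 to 1.42) and Pdpn by 0.61 (-0.17 to 1.39). By their first features Hopx and Clic5 were the 2 markers of 10 whose groups did not overlap, against 6.99% of all genes, and the second Hopx feature did overlap. The estimate rested on Fgf10+/- replicate 1: without it the median was 0.02 with 6 of 10 positive, and without replicate 2 it was 1.16 with 10 of 10 positive.

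Ordered by group mean, both Fgf10+/- groups came above both wild-type groups for 10 of 10 markers, against 12.6% of all genes. The markers vary together, so these are not 10 separate observations. The place of Fgf10+/- hyperoxia rested on replicate 1. Replicate 2 alone lay below the wild-type normoxia mean for all markers but Hopx, Cav1 and Clic5, as for Emp2 at 12.16 against 12.40. The top group was Fgf10+/- hyperoxia for 5 markers (Ager, Hopx, Aqp5, Rtkn2, Clic5) and Fgf10+/- normoxia for the other 5. The bottom group was wild-type normoxia for 5 and wild-type hyperoxia for 5. Neighbours in these orders did not differ beyond their spread: all 30 gaps, 0.05 to 0.47, were under the larger SD of the groups compared, and the arrays of all 30 pairs overlapped.

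**Figure D3:**
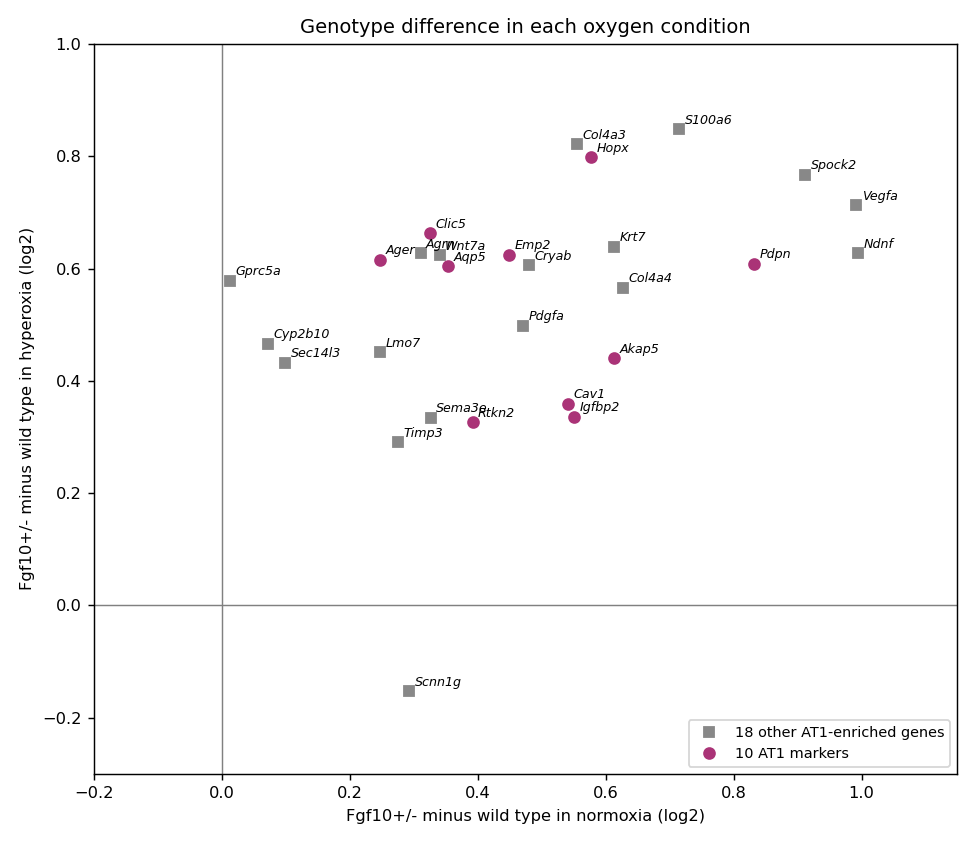
Fgf10+/- minus wild type in normoxia (horizontal axis) and in hyperoxia (vertical axis), in log2 units, for the 10 AT1 markers (circles) and 18 other AT1-enriched genes (squares). All 10 markers lie in the upper right, with normoxia values from 0.25 to 0.83 and hyperoxia values from 0.33 to 0.80; Scnn1g is the 1 gene below 0, at -0.15 in hyperoxia.

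Other genes enriched in AT1 cells were mostly positive between genotypes too. Of 18 such genes, 18 were positive in normoxia with a median of 0.41 and 17 in hyperoxia with a median of 0.59; 0 were called in either. In hyperoxia the list gave 12 of 18 positive and a median of 0.14 without Fgf10+/- replicate 1, and a median of 1.04 without replicate 2. In normoxia it gave 15 of 18 and 0.22 without Fgf10+/- replicate 3, and 15 of 18 and 0.25 without wild-type replicate 4. S100a6, a calcium-binding protein, differed by 0.71 in normoxia and 0.85 in hyperoxia (limma adjusted p = 0.820 and 0.9996). Gprc5a, an orphan receptor induced by retinoic acid, differed by 0.01 and 0.58. Vegfa, the growth factor by which AT1 cells reach the capillaries, differed by 0.99 in normoxia (SE 0.34, limma adjusted p = 0.644) and 0.71 in hyperoxia, and was picked after its values were seen. Hyperoxia minus normoxia was positive for 6 of the 18 in wild type (median -0.10) and 8 of 18 in Fgf10+/- (median -0.12), with 0 called. Without wild-type normoxia replicate 3 it was positive for 11 of 18 in wild type (median 0.18), and with median centring for 10 of 18 (0.011). In Fgf10+/- the median was -0.35 without hyperoxia replicate 1 and 0.44 without replicate 2. Gprc5a differed by -0.88 in wild type and -0.31 in Fgf10+/-, and S100a6 by -0.62 and -0.49.

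Genes of caveolae, the membrane pits built on caveolin 1, did not follow one direction with hyperoxia. Of 6, 2 were positive with hyperoxia in wild type and 2 in Fgf10+/-, and 0 were called. Between genotypes 5 of 6 were positive in normoxia and 6 of 6 in hyperoxia (medians 0.11 and 0.42), with 0 called. Positive signs between genotypes were not confined to AT1 genes. Ciliated cell genes were positive for 6 of 6 in normoxia and 5 of 6 in hyperoxia (medians 0.17 and 0.16). Cav2, the partner of caveolin 1, stood at 8.10 ± 0.54 (SD, n = 4) in wild-type normoxia and 8.95 ± 0.20 (n = 6) in wild-type hyperoxia, a difference of 0.85 (limma adjusted p = 0.0749). In Fgf10+/- Cav2 differed by 1.22 (limma adjusted p = 0.0671). Cavin2, a caveola coat protein, differed by 0.19 and 0.98 (limma adjusted p = 0.668 and 0.0664), and Cavin1, another, by -0.33 and -0.07. Cav2 was picked after its values were seen. With each array centred on its median Cav2 was called in both genotypes (limma adjusted p = 0.0408 and 0.0489), and Cav2 and Cavin2 were called under other settings too. Endothelium also transcribes Cav2 and Cavin2, and 11 of 11 endothelial genes were positive with hyperoxia in both genotypes (medians 0.49 and 1.05). Their part in the Cav2 and Cavin2 values was not tested. In Fgf10+/- 3 of the 11 rose, against 2.45% of all genes called: Egfl7 by 2.46, Cldn5 by 2.08 and Ramp2 by 1.71 (limma adjusted p = 0.00714, 0.0174 and 0.0421). Cldn5 and Ramp2 were not called with the replicate number as a block (adjusted p = 0.0593 and 0.106), with only the groups of the contrast fitted (0.0535 and 0.0884) or with the thymocyte covariate (0.0838 and 0.157). Without Fgf10+/- hyperoxia replicate 2, which leaves a single array there, the 3 differed by 1.88, 1.46 and 1.01 and were not called. Ramp2 was also lost without any 1 of the Fgf10+/- normoxia arrays, wild-type normoxia replicates 2 or 3, or wild-type hyperoxia replicate 3 (adjusted p up to 0.0891). Of 8 genes of lymphatic endothelium and mesothelium, 2 were positive in wild type (median -0.29) and 3 in Fgf10+/- (median -0.42), and Lyve1 was the 1 called in each. Lyve1, a lymphatic endothelial receptor for hyaluronan, rose by 1.30 in wild type and by 2.50 in Fgf10+/- (limma adjusted p = 0.0375 and 0.00758). The wild-type call was lost without any 1 of the wild-type normoxia arrays, wild-type hyperoxia replicates 1, 2, 3 or 5, or Fgf10+/- normoxia replicate 4 (adjusted p up to 0.121), and the Fgf10+/- call without hyperoxia replicate 2 (1.73, adjusted p = 0.129). With the block Lyve1 was not called in wild type (adjusted p = 0.0822), and with the thymocyte covariate in neither genotype (0.124 and 0.0572).

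Regulators of AT1 fate and readouts of YAP and TAZ gave 0 calls of 12 in either hyperoxia comparison. They were positive for 2 of 12 in wild type (median -0.10) and 6 of 12 in Fgf10+/- (median 0.01). Nkx2-1, which both alveolar cell types need, differed by -0.65 in wild type and -0.60 in Fgf10+/- (limma adjusted p = 0.188 in wild type), and was picked after its values were seen. Ccn1 and Ccn2, secreted matricellular proteins and common readouts of YAP, differed by 0.27 and 0.18 in wild type and by 0.49 and 0.16 in Fgf10+/-. Sftpc, at the array maximum, has no readable direction. Of the other 11 AT2 genes, 2 were positive with hyperoxia in wild type and 1 in Fgf10+/- (medians -0.36 and -0.43). Between genotypes 3 were positive in normoxia and 0 in hyperoxia (medians -0.16 and -0.33). These counts were made without Sftpc after the data were seen. Those that use Fgf10+/- hyperoxia rest on 2 unlike arrays. The mean of all 12 AT2 genes was 11.99 in replicate 1 and 10.74 in replicate 2, against 11.16 to 12.11 in wild-type hyperoxia. Of 7 measured markers of the transitional epithelium between AT2 and AT1, 0 were positive with hyperoxia in wild type and 2 in Fgf10+/-, with medians of -0.45 and -0.26; 5 and 7 were positive between genotypes. None of these AT2 or transitional genes was called.

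Most markers moved together from array to array within the groups. Each value was taken as its deviation from its group mean, which removes the group differences, and genes were compared by Pearson's r over the 16 arrays. These arrays share their normalization, and r is a description. Among Ager, Pdpn, Aqp5, Clic5, Akap5 and Emp2, a set gathered after the values were seen, the 15 pairs had r from 0.88 to 0.97 with a median of 0.92. Over all 45 pairs of the 10 markers the median was 0.75, from -0.40 to 0.97. Between 0.253% and 0.446% of 8298 genes with a mean over 6 had r over 0.9 with any 1 of these 6 markers. Aqp5 and Clic5 were the closest pair, at r = 0.97. Hopx ran with the 6 at r = 0.61 to 0.82, Rtkn2 at 0.67 to 0.79 and Igfbp2 at 0.49 to 0.63. Cav1 did not follow them, at -0.12 to 0.15.

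The same arrays were high or low for most markers. In wild-type normoxia replicate 3 lay 0.58 to 0.85 above the group mean for the 6 markers and was the highest array for 8 of the 10, while replicate 1 lay 0.37 to 0.81 below it and was the lowest for 8. In Fgf10+/- normoxia replicate 3 lay 0.42 to 0.84 above and replicate 2 lay 0.52 to 0.81 below. In wild-type hyperoxia all deviations of the 6 markers lay between -0.40 and 0.36, and replicate 6 was below the group mean for 10 of 10. In Fgf10+/- hyperoxia replicate 1 lay 0.42 to 0.76 above the mean of the pair.

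**Figure D4:**
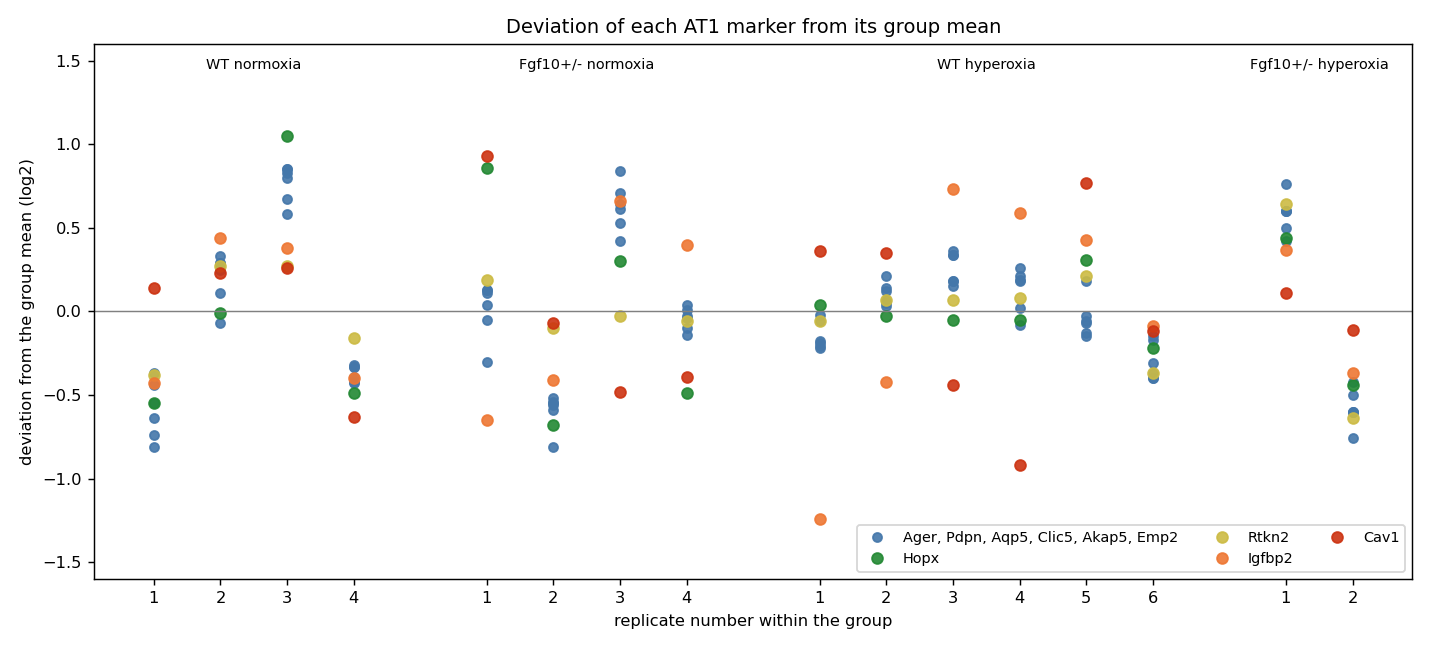
Deviation of each AT1 marker from its group mean in log2 units (vertical axis) on every array, by replicate number within the 4 groups (horizontal axis). Replicate numbers were not used to link the groups. Blue points are Ager, Pdpn, Aqp5, Clic5, Akap5 and Emp2, which lie close together on each array, 0.58 to 0.85 above the mean on wild-type normoxia replicate 3; Cav1 (red) departs from them, as at 0.93 on Fgf10+/- normoxia replicate 1.

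Gene lists for other cells were set beside these deviations. The mean of the 18 other AT1-enriched genes followed the markers with a median r of 0.88, though r was -0.06 for Cav1. Regulators of AT1 fate and YAP readouts followed at a median of 0.76, AT2 genes at 0.67, transitional genes at 0.60 and caveola genes at 0.58. For thymocyte genes the median r was -0.52, for lymphatic endothelium and mesothelium -0.52, for fibroblasts -0.36, for smooth muscle and pericytes -0.30, for endothelium -0.28 and for macrophages and neutrophils -0.28. Ciliated cell genes stood at 0.38 and club and basal genes at 0.21. Cav1 again differed from the others, with r = 0.77 for erythroid genes, 0.54 for endothelium, 0.49 for fibroblasts and -0.60 for club and basal genes. The part of other cells in the marker values was not tested.

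**Figure D5:**
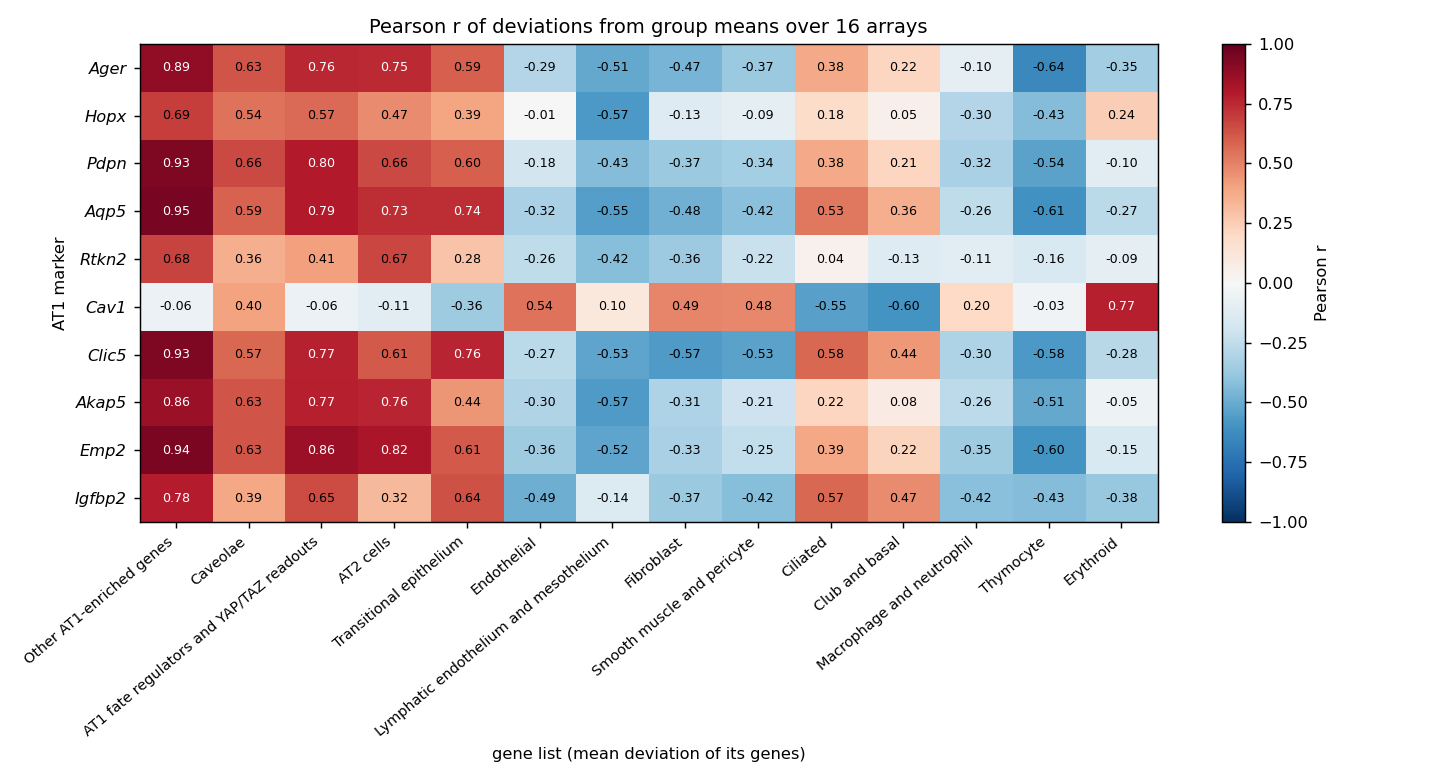
Pearson r between the deviation of each AT1 marker (vertical axis) and the mean deviation of each gene list (horizontal axis) over the 16 arrays; red is positive and blue negative. The row of Cav1 has the opposite sign to most others for the endothelial (0.54), fibroblast (0.49) and club and basal (-0.60) lists.

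By the same measure the genes most like each marker were named, among 8298 with a mean over 6. They were Itga3 (r = 0.96), Thbs3 and S100a14 for Ager, Itgb6 (0.96), Wwc2 and Ano1 for Pdpn, Clic5 (0.97), Sema3b and Emp2 for Aqp5, and Sema3b (0.98), Irx2 and Akap5 for Emp2. For Clic5 they were Aqp5, 2200002D01Rik and Ppp3ca, and for Akap5 they were Emp2 (0.96), Slc44a2 and Tinagl1. Hopx was closest to Rab5b (0.92), Arf3 and Msn, and Rtkn2 to Plaat3 (0.89), Lama3 and Tspan5. Igfbp2 was closest to Cfap410 (0.95), Crot and Lrpap1. Cav1 was closest to Ube2r2 (0.94), Nfkb1 and Klhdc3. No marker was among the genes named for Cav1, and the same held for Ager, Hopx, Pdpn, Rtkn2 and Igfbp2.

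Features of the same gene mostly told the same story. Deviations of the other feature followed the first with r = 0.92 for Igfbp2, 0.88 for Aqp5, 0.86 for Emp2, 0.83 for Hopx and 0.79 for Pdpn. Genotype differences were positive for all 5 second features in both conditions, from 0.17 (Aqp5) to 0.94 (Emp2) in normoxia. With hyperoxia, the second Aqp5 feature differed by 0.14 in wild type where the first differed by -0.09. The second Emp2 feature differed by -0.84 in Fgf10+/- where the first differed by -0.08. For Pdpn the first feature differed by -0.23 in wild type and -0.46 in Fgf10+/-, and the second by -0.04 and -0.05. The features of Hopx and of Igfbp2 lay closer together.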

How the data were processed

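The authors deposited 1 value per array feature and sample, read here as log2 intensities from their range (-0.40 to 15.98). Their software, background correction and log base are not stated. The 16 arrays shared 1 distribution, with rank-matched values no more than 0.20 apart. No detection flag, slide or scan label was used. Of 62976 features, 65 with a missing value were left out, and 31439 with 1 gene symbol, updated through RefSeq tables of GRCm38.p6, covered 20725 genes. For the 6165 genes with several features the feature with the highest mean stood for the gene.

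Group means were fitted with limma 3.58.1 (lmFit, contrasts, eBayes) in R 4.3.3 on all 16 samples, with Benjamini-Hochberg adjustment over 20725 genes and calls at an adjusted p under 0.05. The fit was tested on simulated data. The markers and the 14 other gene lists (124 of 128 genes measured) were chosen with earlier results of these data known. Named genes were the 10 markers, up to 3 called or 2 of the brightest genes of a list, and the 3 genes most like each marker by r; genes picked outside this rule are marked. Promoter sequences came from RefSeq. Alternatives covered centring, quantile normalization, features per gene, a filter on means under 6, variance options, array weights, the samples fitted, the replicate number, thymocyte genes and leaving out each sample.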

Additional observations from a re-analysis of the deposited data

Results flagged for a closer look

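Cav1 in wild-type normoxia replicate 4 stood apart from the other 3 arrays of its group, at 6.49 against 7.26 to 7.37 log2 units. This was 1 of 30 marker and group combinations of 4 or 6 arrays in which a single far value was looked for, and chance alone gives about 1 in 20. The same array had the highest mean of thymocyte genes, 6.43, and its other markers lay below the group mean too, with 0 of 10 above it. The part of those cells in the value was not tested.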

How the results depend on the processing

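No marker was called in any comparison under the settings run: the count of called markers stayed at 0 of 10 in 10 other settings and in 16 fits that each left out 1 sample, with a lowest limma adjusted p of 0.290 and 0.292. For the genotype comparisons and the interaction, no fit called more than 11 genes of all those tested. A count of 0 of 10 markers was nearly fixed in advance there and says little of stability. Between genotypes 1 of 100 values turned sign in normoxia and 0 of 100 in hyperoxia outside the fits that left out 1 sample. Several settings, such as the filter on means, the variance options and fitting only the compared groups, cannot change these estimates. Their signs were fixed in advance and say nothing of stability. Without Fgf10+/- hyperoxia replicate 1 the genotype difference in hyperoxia was positive for 6 of 10 markers. With the thymocyte genes as a covariate, the median marker difference with hyperoxia was -0.39 in wild type and -0.45 in Fgf10+/-. As given above, that fit cannot fully separate these genes from oxygen. Without the 4 arrays highest in thymocyte genes the median was -0.15 in wild type and -0.58 in Fgf10+/-. In Fgf10+/- replicate 3 was then the single normoxia array, assumed to vary like the other groups. Depth does not apply to arrays, and no background level came with the values; Rtkn2 averaged 6.37 against a median of 4.34 over all values. The cause of the turned signs was not tested.

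Centring each array on its median turned the sign for hyperoxia in wild type of Aqp5 (0.029), for hyperoxia in Fgf10+/- of Cav1 (0.036), Emp2 (0.011) and Cavin1 (0.023). Repeating quantile normalization turned the sign for genotype in normoxia of Gprc5a (-0.012). Averaging the features of a gene turned the sign for hyperoxia in wild type of Aqp5 (0.026), for the interaction of Emp2 (-0.096). Weighting the arrays turned the sign for hyperoxia in Fgf10+/- of Cav1 (0.12), for genotype in normoxia of Gprc5a (-0.12), for the interaction of Rtkn2 (0.027) and Cav1 (0.088). With the replicate number as a block, the fit turned the sign for hyperoxia in wild type of Cav1 (-0.041), for hyperoxia in Fgf10+/- of Akap5 (0.056) and Emp2 (0.080), for the interaction of Igfbp2 (0.29). Adding the mean of the thymocyte genes as a covariate turned the sign for hyperoxia in wild type of Hopx (-0.11), Clic5 (-0.26), Akap5 (-0.28), Cavin2 (-0.090), Ccn1 (-0.13) and Ccn2 (-0.18), for hyperoxia in Fgf10+/- of Ager (-0.45), Hopx (-0.033), Aqp5 (-0.44), Clic5 (-0.083), Ccn1 (-0.098) and Ccn2 (-0.38). Leaving out the 4 arrays highest in thymocyte genes turned the sign for hyperoxia in wild type of Cav1 (-0.089), Clic5 (-0.030), Akap5 (-0.060) and Cavin2 (-0.0072), for hyperoxia in Fgf10+/- of Ager (-0.71), Aqp5 (-0.55), Cav1 (0.42), Clic5 (-0.19) and Ccn2 (-0.59), for genotype in normoxia of Cav1 (-0.15), for the interaction of Ager (-0.37), Aqp5 (-0.33), Rtkn2 (0.024), Cav1 (0.51), Clic5 (-0.16) and Emp2 (-0.22). For same-numbered samples, 9 of 18 pairs had r over 0.1, from -0.47 to 0.52, and 6 of 16 arrays were closest to an array of their own number. With no chance level beside them, these counts cannot decide whether same-numbered samples belong together. The block left the markers called at 0 and took all genes called from 649 to 216 for hyperoxia in wild type and from 507 to 103 in Fgf10+/-. The same counts were 1172 and 792 over genes with a mean over 6, 1000 and 692 with trended robust variances, 423 and 115 with the thymocyte covariate, and 278 and 14 without the 4 arrays. In Fgf10+/- they were 332 with features averaged and 261 with only its 2 groups fitted. With 1 sample left out, all genes called ran from 323 to 698 for hyperoxia in wild type and from 90 to 567 in Fgf10+/-. They were 323 and 381 without wild-type normoxia replicates 2 and 4, and in Fgf10+/- 90 and 108 without either hyperoxia array and 252 and 278 without Fgf10+/- normoxia replicates 1 and 4. Cav2 was called for hyperoxia in wild type after median centring (0.96, limma adjusted p = 0.0408), over genes with a mean over 6 (0.0273) and with trended robust variances (0.0327). In Fgf10+/- it was called under the same settings (adjusted p = 0.0489, 0.0266 and 0.0309), without wild-type normoxia replicate 1 (0.0375) and without Fgf10+/- normoxia replicate 3 (0.0343). Cavin2 was called in Fgf10+/- after repeated quantile normalization (1.03, adjusted p = 0.0440), over genes with a mean over 6 (0.0211), with trended robust variances (0.0180), with array weights (0.0359), without Fgf10+/- normoxia replicate 3 (0.0418) and without wild-type normoxia replicate 4 (0.0372). Centring moved the median of all genes from -0.08 to 0.03 for hyperoxia in wild type, that of the markers from -0.02 to 0.10, and the calls from 367 higher and 282 lower to 509 and 161. Without the 4 arrays highest in thymocyte genes Egfl7, Cldn5, Ramp2 and Lyve1 differed by 2.42, 2.12, 1.83 and 2.39 in Fgf10+/- and were not called (limma adjusted p = 0.256 to 0.403), in a fit with a single Fgf10+/- normoxia array. The interaction was not fitted on the groups of 1 contrast alone.

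Leaving out 1 sample at a time turned the sign of these genes in at least 1 fit. For hyperoxia in wild type the values ran for Pdpn from -0.45 to 0.042, Aqp5 from -0.33 to 0.18, Cav1 from -0.089 to 0.31, Clic5 from -0.19 to 0.37, Akap5 from -0.096 to 0.33 and Cavin2 from -0.0072 to 0.33. For hyperoxia in Fgf10+/- the values ran for Ager from -0.46 to 0.73, Hopx from -0.029 to 0.85, Pdpn from -0.96 to 0.044, Aqp5 from -0.44 to 0.77, Rtkn2 from -0.47 to 0.81, Cav1 from -0.22 to 0.25, Akap5 from -0.88 to 0.64, Emp2 from -0.69 to 0.52, Gprc5a from -0.64 to 0.013, Cavin1 from -0.21 to 0.021 and Ccn2 from -0.19 to 0.51. For genotype in normoxia the values ran for Ager from -0.034 to 0.44 and Gprc5a from -0.34 to 0.30. For genotype in hyperoxia the values ran for Aqp5 from -0.00048 to 1.21, Rtkn2 from -0.32 to 0.97, Akap5 from -0.32 to 1.20 and Igfbp2 from -0.033 to 0.71. For the interaction the values ran for Ager from -0.23 to 0.97, Hopx from -0.22 to 0.66, Pdpn from -0.72 to 0.28, Aqp5 from -0.35 to 0.86, Rtkn2 from -0.71 to 0.58, Cav1 from -0.37 to 0.13, Clic5 from -0.078 to 0.75, Akap5 from -0.93 to 0.59, Emp2 from -0.43 to 0.78 and Igfbp2 from -0.58 to 0.16.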
